A study of Homo sapiens with 15 samples.

Results

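The genes described here were 134 protein-coding genes that untreated K562 cells expressed and that had lost most of their mRNA signal at the highest dose of martinostat. They were selected on the measured values themselves. Levels are CPM, that is, each count divided by the library total and multiplied by 1000000. A gene was taken when its mean over the 3 untreated libraries was at least 10 CPM and its mean over the 3 libraries at 1 µM was at most 12.5% of that. The limits were met by 138 genes, of which 4 (KLF1, HEMGN, STAT5A and SLC6A19) were left out by name, so their absence from the members is no result. The remaining 134 were 1.57% of the 8559 protein-coding genes with at least 10 CPM untreated, out of 60649 genes in the count table. Because the untreated and the 1 µM libraries chose the genes, the size of the loss at 1 µM is given as a description with no test. Tests were run on the steps between 0.15, 0.25 and 0.5 µM, whose libraries were not used in the choice. The results of these steps are still not free of it. Every member had to be low at 1 µM, and levels changed little between 0.5 and 1 µM. That most members were lower by 0.5 µM follows largely from the choice. The step counts describe where in the dose range the fall lay.

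The libraries were poly(A) mRNA sequencing of K562, an established human line of chronic myeloid leukemia that carries the BCR-ABL fusion and has features of early red cell precursors. Martinostat is an inhibitor of histone deacetylases (HDACs). The 5 groups were untreated cells and cells kept for 24 h with 0.15, 0.25 or 0.5 µM or with 1 µM martinostat, each with 3 biological replicates of this single line and with no other agent. The labels give no vehicle or culture time for the untreated cells.

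HDACs remove acetyl groups from histones and other proteins, and their inhibition leads to hyperacetylated chromatin. HDAC inhibitors raise the mRNA of some genes and lower that of others. In red cell precursors GATA1 works in complexes with LMO2, TAL1 and the co-repressor CBFA2T3, and MYC drives genes for ribosome assembly through CACGTG elements, the canonical E-box.

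Library totals lay between 23755510 and 32805574 counts. The third libraries at 0.25 and 0.5 µM stood apart from the rest on the third principal component of log CPM, which carried 4.47% of the variance. They sat at -70.1 and -75.4, and the other 13 libraries between -16.0 and 42.5. For this reason the number of members called in each dose step was also obtained without this pair. All 10 K562 markers were found, with a summed level of 2843 to 3064 CPM untreated and 1046 to 1163 CPM at 1 µM, although HBE1 was near 0 (0.135 CPM untreated). GATA1 and HBZ are among the markers that are also members. T cell, B cell and monocyte markers summed to at most 51.2 CPM in any library but were not constant. T cell markers summed to 2.77 to 3.82 CPM untreated, 16.4 to 22.3 CPM at 0.15 µM and 1.88 to 4.43 CPM at 1 µM. Monocyte markers summed to 5.70 to 7.38 CPM untreated and 25.5 to 51.2 CPM at 0.25 µM. B cell markers summed to 1.80 to 3.86 CPM untreated and 8.44 to 9.19 CPM at 1 µM. The 3 fibroblast markers summed to between 18 and 20 CPM untreated, 289 and 360 CPM at 0.15 µM and 311 and 504 CPM at 1 µM. COL1A1 made up most of this sum in the treated groups and COL1A2 in the untreated one. The 3 epithelial markers summed to between 108 and 117 CPM untreated and 20.3 and 24.1 CPM at 1 µM. The part of these shifts in the results was not tested. In bulk RNA, fewer cells expressing a gene and less of its RNA per cell cannot be told apart.

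The selected genes did not lose their mRNA evenly over the dose range. With rising dose the median member stood at 65.3%, 35.3%, 8.17% and 8.85% of its untreated level. The median of the 8559 expressed protein-coding genes was 97.3%, 97.0%, 86.2% and 84.8% at these doses. Of the fall on the log2 scale from untreated to 1 µM, a median 17.5% was made by 0.15 µM, 22.9% between 0.15 and 0.25 µM, 60.4% between 0.25 and 0.5 µM and -3.16% beyond. The step from 0.25 to 0.5 µM was the largest for 116 members, the step to 0.15 µM for 12 and the step from 0.15 to 0.25 µM for 6. No member had its largest fall between 0.5 and 1 µM. The level was at most 50% of untreated first at 0.15 µM in 39 members, at 0.25 µM in 51 and at 0.5 µM in 44. It was at most 12.5% first at 0.25 µM in 3 members, at 0.5 µM in 120 and at 1 µM in 11.

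**Figure D1:**
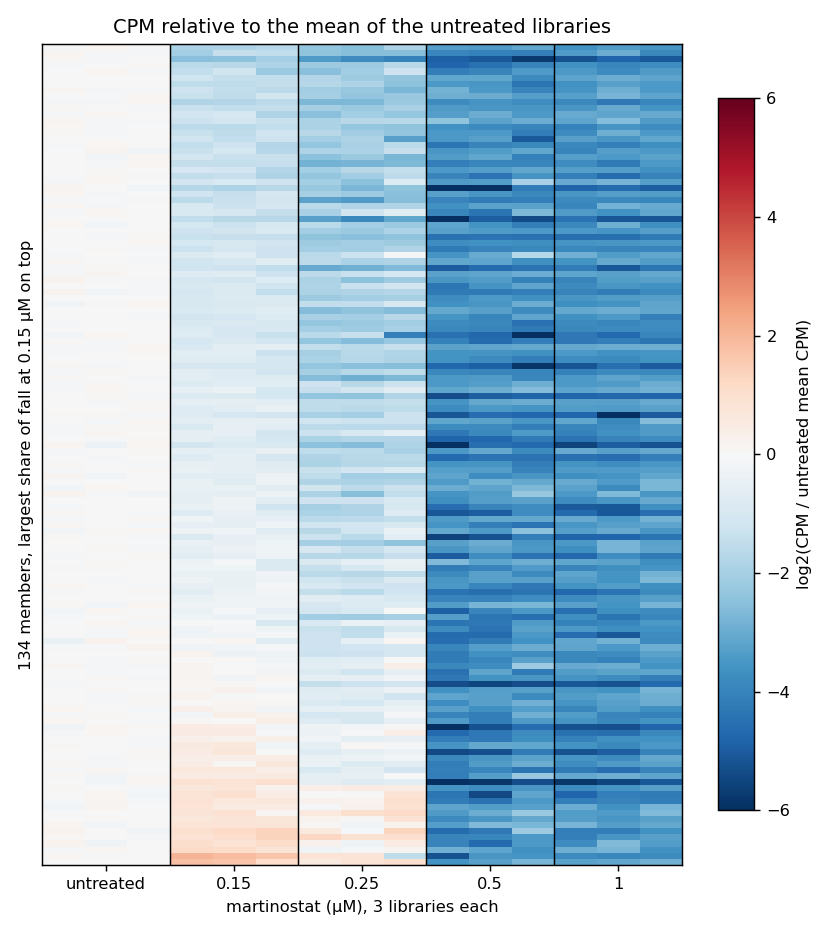
Heat map of the log2 ratio of CPM to the mean of the untreated libraries, with the 134 members as rows, the 15 libraries as columns in order of dose, and colour as the ratio, held at -6 where lower. Rows run from members that made most of their fall at 0.15 µM to members that were above untreated at that dose, and in nearly all rows the darkest blue begins at 0.5 µM.

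As a sum, the members made up 1.92% to 1.96% of all counts in the untreated libraries. Their summed CPM was 66.2%, 39.5%, 7.69% and 8.26% of the untreated sum at the 4 doses. In the single libraries the sum was 13205, 13055 and 12286 CPM at 0.15 µM, 7331, 7405 and 8257 CPM at 0.25 µM, and 1454, 1534 and 1491 CPM at 0.5 µM. The groups did not overlap. The third library at 0.25 µM held the highest value of its group for 86 members, and the third library at 0.5 µM for 68.

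All 134 members passed the filter on low counts, a filter that their untreated level alone was enough to meet. From 0.15 to 0.25 µM, edgeR's quasi-likelihood test called 108 members lower and 0 higher at an adjusted p under 0.05, whereas 7.32% of all 23711 tested genes were called lower and 4.96% higher. At an unadjusted p under 0.05, 0 members were higher in this step, and DESeq2 called 0 members higher in any step. The median log2 fold change of the members was -0.96, with a range from -2.18 for TERT to 0.11 for ZEB2, and that of all tested genes was 0.02. A fall of more than 2-fold together with the call was seen in 61 members, beside 330 of all 23711 tested genes. In 97 members every library at 0.25 µM lay below every library at 0.15 µM. This and the later counts of members without overlap have no share over all genes beside them, so they only describe the members. Without the third libraries at 0.25 and 0.5 µM the test called 121 members lower, beside 2124 of all tested genes.

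From 0.25 to 0.5 µM, 133 members were called lower and 0 higher, beside 16.0% of all tested genes called lower and 14.4% higher. The median log2 fold change was -2.07 and the smallest fall was that of UNG, at -0.62. Of the called members 120 fell by more than 2-fold, beside 2222 of all tested genes called with such a fall. The median of all tested genes was again 0.02. In 131 members the libraries at 0.5 µM all lay below those at 0.25 µM. The member that was not called was HBZ. Without the third libraries of these groups 132 members were called lower, beside 3977 of all tested genes.

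Across both steps, from 0.15 to 0.5 µM, all 134 members were called lower, each by more than 2-fold and with no overlap between the groups. Among all tested genes 23.0% were called lower and 22.0% higher, and 3311 genes were called lower by more than 2-fold. All tested genes were not chosen for a low level at 1 µM, so their shares are no matched baseline for the members. The median log2 fold change of the members was -3.11 and the range -6.61 to -1.47. The largest falls were those of CBFA2T3 and ALB, with log2 fold changes of -6.61 and -5.77, and the smallest was that of FAM136A.

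**Figure D2:**
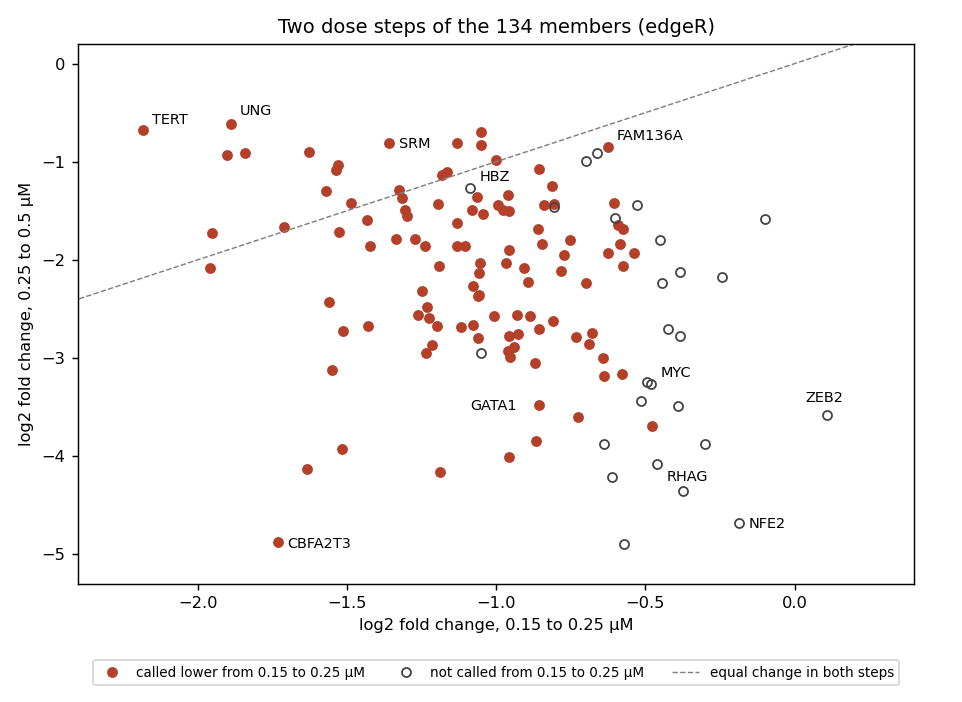
Log2 fold change from 0.15 to 0.25 µM (horizontal axis) against that from 0.25 to 0.5 µM (vertical axis), 1 point per member, both estimated by edgeR. Filled points are the 108 members called lower in the first of these steps and open points the other 26, and points below the dashed line fell further in the second step.

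Between 0.5 and 1 µM, where the selection limits the view, levels changed little. The ratio of the mean at 1 µM to that at 0.5 µM had a median of 1.08 and ran from 0.616 to 1.83, with 87 members higher and 47 lower at 1 µM. For 125 members it lay within a factor of 1.5 of equality. The highest ratios were those of HEPACAM2, CD36 and UBASH3A, which rest on low counts or a low library at 0.5 µM. There HEPACAM2 had 15, 21 and 37 counts and UBASH3A 1, 10 and 9. CD36 was at 8.12, 6.99 and 1.03 CPM, lowest in the third library. The median fold loss from untreated to 1 µM was 11.3, with a range of 8.01 to 43.4, and the median coefficient of variation between replicates was 5.83% untreated and 18.3% at 1 µM.

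At the selection limits the members did not stand clear of the genes next to them. Just inside, POGLUT3, TWNK and CENPV had lost 8.04-fold, 8.02-fold and 8.01-fold. Just outside, CRACR2A, APOBR and MYBBP1A had lost 7.994-fold, 7.994-fold and 7.987-fold. The lowest untreated levels inside were 10.6 CPM for HOXB8 and 11.9 CPM for C10orf71, and KYNU at 9.26 CPM and F2RL3 at 9.57 CPM fell just short of the limit.

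Promoter sequence is shown for the first members in order of loss that have an entry in the RefSeq promoter table (GRCh38.p14). These are CBFA2T3 (chr16:88941351-88941600, minus strand), C10orf71 (chr10:49298920-49299169, plus strand), TFAP2B (chr6:50818621-50818870, plus strand) and SLC38A5 (chrX:48470261-48470510, minus strand). Each run is the 250 bases before the annotated start, 5′ to 3′ on the strand of the gene. Capitals mark every match, on either strand, to one of 10 motifs searched. In CBFA2T3 these are 5 copies of the SP element GGGCGG, in TFAP2B a TATA box TATAAA and an NF-Y element CCAAT, and in SLC38A5 an E-box CACGTG, 1 SP element and 4 copies of the KLF element CCACCC. C10orf71 held none.
CBFA2T3: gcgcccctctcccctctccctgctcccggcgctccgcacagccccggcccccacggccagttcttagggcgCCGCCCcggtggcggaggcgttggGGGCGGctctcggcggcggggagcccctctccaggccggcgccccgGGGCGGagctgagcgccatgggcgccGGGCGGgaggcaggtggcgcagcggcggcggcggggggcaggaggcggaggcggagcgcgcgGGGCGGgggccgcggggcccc
C10orf71: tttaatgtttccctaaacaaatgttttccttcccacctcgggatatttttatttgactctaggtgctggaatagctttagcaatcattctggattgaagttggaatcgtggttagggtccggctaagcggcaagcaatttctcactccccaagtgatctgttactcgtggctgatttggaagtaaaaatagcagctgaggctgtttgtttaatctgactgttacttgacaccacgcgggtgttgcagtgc
TFAP2B: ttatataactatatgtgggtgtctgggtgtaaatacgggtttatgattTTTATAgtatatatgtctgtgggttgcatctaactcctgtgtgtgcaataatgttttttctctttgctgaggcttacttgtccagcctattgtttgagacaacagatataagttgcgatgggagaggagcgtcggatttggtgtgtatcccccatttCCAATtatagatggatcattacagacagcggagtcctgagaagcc
SLC38A5: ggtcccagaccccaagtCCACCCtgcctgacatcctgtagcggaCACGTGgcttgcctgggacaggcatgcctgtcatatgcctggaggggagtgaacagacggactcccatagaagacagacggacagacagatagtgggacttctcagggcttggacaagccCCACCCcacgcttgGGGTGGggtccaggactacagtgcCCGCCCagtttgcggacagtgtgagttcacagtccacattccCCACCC

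A further pair of promoters was chosen after the values were seen, to show the 2 motifs that return below. UTP20 (chr12:101279855-101280104, plus strand) held the E-box letters CACGTG shortly before the start, and MS4A3 (chr11:60056415-60056664, plus strand) held AGATAA, the letters bound by GATA factors. Here the capitals mark only these matches.
UTP20: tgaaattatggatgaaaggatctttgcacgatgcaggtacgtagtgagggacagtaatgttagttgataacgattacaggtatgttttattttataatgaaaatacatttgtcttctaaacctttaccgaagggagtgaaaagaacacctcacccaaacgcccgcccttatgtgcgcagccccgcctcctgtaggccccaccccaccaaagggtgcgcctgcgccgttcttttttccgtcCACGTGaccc
MS4A3: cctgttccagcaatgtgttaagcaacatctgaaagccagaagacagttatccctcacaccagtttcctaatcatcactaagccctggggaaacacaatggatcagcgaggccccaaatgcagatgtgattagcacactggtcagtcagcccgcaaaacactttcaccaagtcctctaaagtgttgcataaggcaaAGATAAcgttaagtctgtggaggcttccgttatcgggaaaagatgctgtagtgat

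Of 20 listed erythroid transcription regulators, 5 were members, and all 5 were called lower from 0.25 to 0.5 µM. KLF1 and HEMGN of this list also met the limits but were left out by name. The dose course of the 5 members was steep. Their median level was 122% of untreated at 0.15 µM, 63.4% at 0.25 µM and 3.11% at 0.5 µM. On library totals, 4 of the 5 were above untreated at 0.15 µM, a count that depends on this scale. In the full list, 11 of 20 were called lower and 0 higher from 0.15 to 0.25 µM, and 16 lower and 0 higher from 0.25 to 0.5 µM, with a median log2 fold change of -1.72 in the later step.

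GATA1, the zinc finger factor that directs red cell differentiation, was at 270, 264 and 253 CPM untreated, 323, 300 and 338 CPM at 0.15 µM, and 226, 179 and 188 CPM at 0.25 µM. It was at 15.0, 13.5 and 20.3 CPM at 0.5 µM and 15.6, 21.1 and 21.0 CPM at 1 µM. On library totals, the libraries at 0.15 µM were all above and those at 0.25 µM all below the untreated ones. Those at the higher doses lay far below. GATA1 changed by -0.86 on the log2 scale (SE 0.15, adjusted p = 0.00138, edgeR) from 0.15 to 0.25 µM and -3.48 (SE 0.17, adjusted p = 6.32e-11) from 0.25 to 0.5 µM.

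NFE2, the erythroid subunit of the NF-E2 factor that acts at globin genes, took a later course. It was at 221, 212 and 202 CPM untreated, 392, 419 and 527 CPM at 0.15 µM and 495, 396 and 427 CPM at 0.25 µM. It then stood at 13.7, 14.0 and 19.1 CPM at 0.5 µM and at 12.4, 18.6 and 22.2 CPM at 1 µM. Thus it was at 211% and 208% of untreated at the lower doses and at 7.38% at 0.5 µM. From 0.15 to 0.25 µM the log2 fold change of -0.19 (SE 0.18, adjusted p = 0.575, edgeR) did not pass the test, and from 0.25 to 0.5 µM it was -4.68 (SE 0.22, adjusted p = 3.43e-11).

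CBFA2T3, a co-repressor also known as ETO2, had the lowest share left at 1 µM of all members. Its libraries were at 155, 137 and 167 CPM untreated, 286, 269 and 306 CPM at 0.15 µM, 102, 89.4 and 99.5 CPM at 0.25 µM and 2.44, 2.66 and 3.88 CPM at 0.5 µM. Groups next to each other in dose did not overlap over this range. The log2 fold changes of the later steps were -1.73 (SE 0.16, adjusted p = 4.68e-06, edgeR) and -4.88 (SE 0.19, adjusted p = 1.21e-11).

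GFI1B, a repressor that recruits histone demethylase complexes in erythroid cells, kept its level at 0.15 µM on library totals. It was at 128, 123 and 120 CPM there, against 113, 120 and 121 CPM untreated. It dropped to 43.9, 48.8 and 52.5 CPM at 0.25 µM and to 2.99, 2.62 and 2.99 CPM at 0.5 µM. LMO2, the bridging protein of the GATA1 and TAL1 complex, was the regulator that was already lower at 0.15 µM, with 75.5, 74.6 and 64.2 CPM against 136, 140 and 128 CPM untreated. At 0.25 µM LMO2 was at 25.8, 25.6 and 38.6 CPM and at 0.5 µM at 3.37, 4.33 and 4.88 CPM. The log2 fold change between 0.25 and 0.5 µM was -3.93 for GFI1B (SE 0.17, adjusted p = 2.28e-11, edgeR) and -2.68 for LMO2 (SE 0.15, adjusted p = 3.52e-10).

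**Figure D3:**
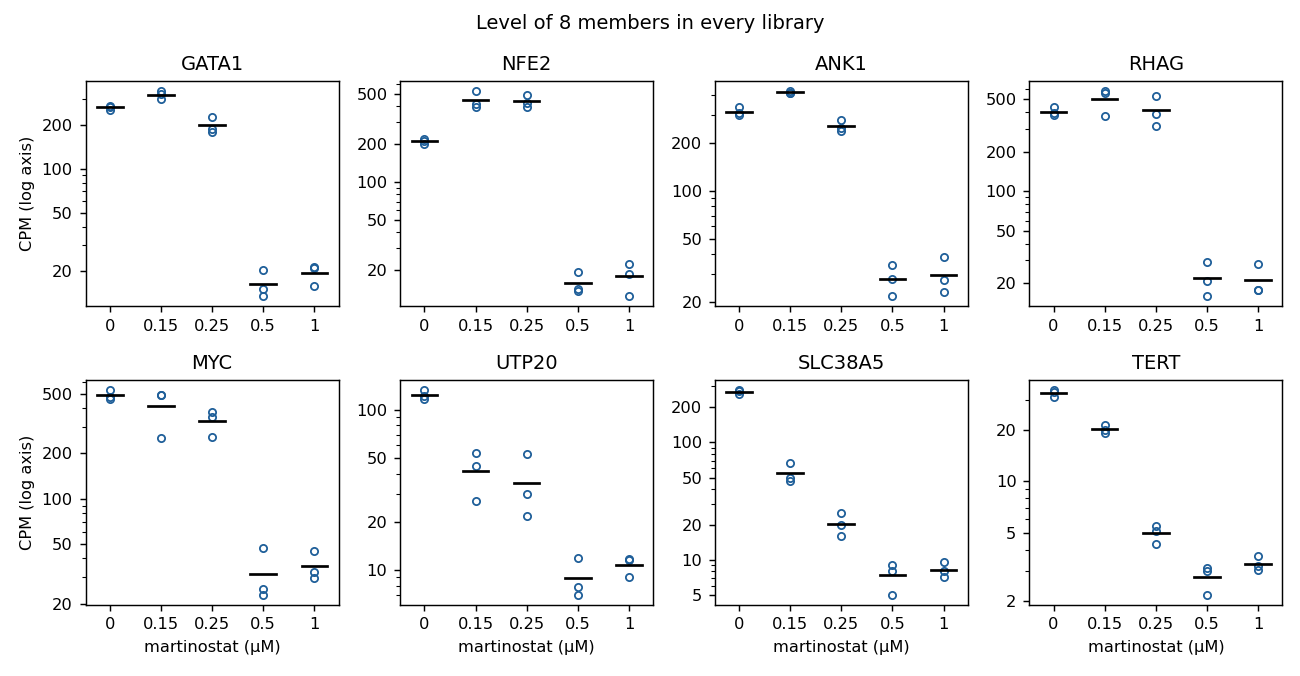
CPM on a log axis of 8 members against martinostat dose in µM, with 0 for untreated, 1 circle per library and a bar at the mean of 3. GATA1, NFE2, ANK1, RHAG and MYC break between 0.25 and 0.5 µM, whereas UTP20, SLC38A5 and TERT had already lost signal at the lower doses.

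Genes for the red cell surface and the membrane skeleton kept a high level up to 0.25 µM in median on library totals. Of 24 listed genes 8 were members, with a median of 123% of untreated at 0.15 µM, 86.2% at 0.25 µM and 4.98% at 0.5 µM. From 0.15 to 0.25 µM 3 of the 8 were called lower, GYPC and ANK1 among them, and from 0.25 to 0.5 µM all 8, with a median log2 fold change of -3.27. In the full list, of 23 tested genes 9 were lower and 0 higher in the earlier step and 18 lower and 1 higher in the later one.

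GYPB and GYPE, close copies of each other on the same stretch of chromosome 4 that encode glycophorins of the red cell surface, went from 133.5% and 145% of untreated at 0.25 µM to 10.5% and 6.38% at 0.5 µM. Reads of these near-identical genes can be split between them, so their single levels are uncertain.

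RHAG, the Rh-associated glycoprotein needed for the Rh blood group complex, kept its level up to 0.25 µM on library totals. It was at 380, 438 and 395 CPM untreated, 577, 564 and 371 CPM at 0.15 µM and 316, 391 and 532 CPM at 0.25 µM, and then at 16.0, 20.9 and 29.2 CPM at 0.5 µM. The libraries of the first 3 groups overlapped, and none at 0.5 µM came near them. The log2 fold change from 0.25 to 0.5 µM was -4.08 (SE 0.23, adjusted p = 5.32e-10, edgeR). ANK1, the ankyrin that ties the skeleton to the membrane, went from 240, 251 and 279 CPM to 21.8, 28.1 and 34.1 CPM in this step (log2 fold change -3.06, SE 0.18, adjusted p = 7.13e-10, edgeR).

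GYPC, a glycophorin that anchors the skeleton through protein 4.1, was already lower at 0.15 µM. It was at 379, 351 and 365 CPM untreated, 179, 173 and 173 CPM at 0.15 µM, 72.1, 63.1 and 62.9 CPM at 0.25 µM and 13.8, 12.2 and 6.34 CPM at 0.5 µM, with no overlap between these groups. The log2 fold changes of the later steps were -1.56 (SE 0.26, adjusted p = 0.00116, edgeR) and -2.43 (SE 0.27, adjusted p = 3.81e-06).

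CD36, a scavenger receptor of red cell precursors, and HBZ, the embryonic zeta globin, were the 2 members in which the third library was under 50% of both others at 0.25 µM and also at 0.5 µM. The third library was over 2-fold above both others in 3 members at 0.25 µM and in 14 at 0.5 µM. CD36 was at 58.3, 70.0 and 10.4 CPM at 0.25 µM and at 8.12, 6.99 and 1.03 CPM at 0.5 µM. Its log2 fold change in this step was -2.95 with a wide SE of 0.76 (adjusted p = 0.0116, edgeR). HBZ was at 815, 860 and 847 CPM untreated, 363, 302 and 356 CPM at 0.15 µM, 205, 230 and 87.6 CPM at 0.25 µM, 77.8, 88.2 and 25.3 CPM at 0.5 µM and 86.9, 75.4 and 95.7 CPM at 1 µM. For HBZ the groups at 0.25 and 0.5 µM overlapped. The log2 fold change of HBZ from 0.25 to 0.5 µM was -1.27 (SE 0.46, adjusted p = 0.0555, edgeR). It passed with the replicate number as a block (-1.29, adjusted p = 0.0399) and without the third libraries of both groups (-1.19, adjusted p = 8.44e-07), among 8 of 15 alternative fits that called it, with adjusted p-values from 8.44e-07 to 0.197. Of the 10 tested globin genes and their chaperone, HBZ was the single member, and 2 were called lower and 0 higher in this step.

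MYC, the transcription factor that drives growth and ribosome production, was at 475, 529 and 460 CPM untreated, 492, 491 and 253 CPM at 0.15 µM and 258, 375 and 350 CPM at 0.25 µM. At 0.5 µM it was at 23.0, 25.0 and 47.0 CPM and at 1 µM at 29.6, 32.6 and 45.0 CPM. The groups at 0.15 and 0.25 µM overlapped, and the step between them did not pass the test (log2 fold change -0.48, SE 0.23, adjusted p = 0.202, edgeR). It passed in 1 of 15 alternative fits, that without a filter on low counts (0.0339), over a range up to 0.487. MYC changed by -3.27 on the log2 scale from 0.25 to 0.5 µM (SE 0.26, adjusted p = 3.34e-08, edgeR). Thus MYC kept 84.4% and 67.1% of its untreated level at the lower doses and 6.49% at 0.5 µM.

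Genes for the nucleolus, ribosome assembly and RNA modification, grouped by name after the members were known, were 14, among them UTP20 of the small subunit processome, NOP16 of the large subunit pathway, POLR1G of RNA polymerase I and the tRNA methyltransferase METTL1. Their median was 55.0% of untreated at 0.15 µM, with a range from 33.1% to 113% and 1 gene above untreated (MRM1), beside 65.3% over all members. It was 28.9% at 0.25 µM and 8.27% at 0.5 µM. From 0.15 to 0.25 µM 13 were called lower, all but UTP20, and from 0.25 to 0.5 µM all 14, with median log2 fold changes of -1.07 and -1.72. In the list of 24 ribosome biogenesis genes, which holds UTP20 and NOP16, 16 were called lower in the earlier step and 11 in the later one, with 0 higher in both.

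UTP20 was at 122, 133 and 117 CPM untreated, 44.4, 53.9 and 26.9 CPM at 0.15 µM, 21.8, 29.7 and 52.7 CPM at 0.25 µM and 7.03, 7.86 and 11.9 CPM at 0.5 µM. Its groups at 0.15 and 0.25 µM overlapped, and the difference did not pass the test (log2 fold change -0.45, SE 0.23, adjusted p = 0.238, edgeR). It was called without the third library at 0.25 µM (-0.74, adjusted p = 0.0398), over a range of 0.0139 to 0.616 in 15 alternatives. NOP16 was at 88.5, 95.2 and 86.9 CPM untreated, 37.5, 44.4 and 37.6 CPM at 0.15 µM, 21.7, 21.4 and 26.0 CPM at 0.25 µM and 4.76, 5.60 and 6.27 CPM at 0.5 µM, with no overlap between these groups. From 0.25 to 0.5 µM the log2 fold change was -1.80 for UTP20 (SE 0.25, adjusted p = 2.46e-05, edgeR) and -1.90 for NOP16 (SE 0.13, adjusted p = 7.11e-09). SRM, the spermidine synthase of polyamine production, went from 276, 235 and 235 CPM at 0.15 µM to 105, 127 and 88.4 CPM at 0.25 µM and 57.9, 68.6 and 35.1 CPM at 0.5 µM, against 581, 529 and 650 CPM untreated.

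Mitochondrial proteins and chaperones, 8 members by name, were the group with the lowest median at 0.15 µM, 46.9% of untreated. All 8 were called lower in both steps. They include HSPE1, the co-chaperonin of the mitochondrial matrix, TFB2M, a mitochondrial transcription factor, and TWNK, the mitochondrial DNA helicase. HSPE1 was at 115, 112 and 107 CPM untreated, 44.7, 40.1 and 40.8 CPM at 0.15 µM, 28.0, 23.4 and 28.8 CPM at 0.25 µM and 10.5, 9.85 and 9.86 CPM at 0.5 µM. FAM136A, an intermembrane space protein, had made 51.9% of its log2 fall by 0.15 µM, the largest share of any member.

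Of 4 genes for DNA synthesis, repair and telomeres, TERT and UNG made most of their fall between 0.15 and 0.25 µM. TERT, the catalytic subunit of telomerase, was at 34.1, 33.1 and 31.1 CPM untreated, 21.4, 19.1 and 20.01 CPM at 0.15 µM, 5.48, 4.31 and 5.14 CPM at 0.25 µM and 2.99, 3.14 and 2.19 CPM at 0.5 µM. TERT changed by -2.18 on the log2 scale (SE 0.20, adjusted p = 4.32e-06, edgeR) from 0.15 to 0.25 µM and -0.68 (SE 0.20, adjusted p = 0.0164) from 0.25 to 0.5 µM. UNG, the glycosylase that removes uracil from DNA, went from 54.7, 58.5 and 60.8 CPM to 16.9, 18.9 and 16.6 CPM in the earlier step (log2 fold change -1.89, SE 0.20, adjusted p = 2.17e-05, edgeR) and to 12.2, 10.6 and 7.37 CPM in the later one (-0.62, SE 0.20, adjusted p = 0.0254). The later step of both lost its call in 4 of 15 alternative fits, with adjusted p-values of up to 0.143 for TERT and 0.146 for UNG. Among these were the fits without the third library at 0.5 µM (0.0870 and 0.0939) and without the first at 0.25 µM (0.0685 and 0.0518), and for UNG that without the second at 0.25 µM (0.112). TYMS, the thymidylate synthase, fell by similar amounts in both, with log2 fold changes of -1.71 (SE 0.17, adjusted p = 1.54e-05, edgeR) and -1.67 (SE 0.19, adjusted p = 1.85e-06). Of 42 DNA replication genes 27 were lower and 0 higher from 0.15 to 0.25 µM, and 4 lower and 11 higher from 0.25 to 0.5 µM. Of 30 DNA repair genes 17 were lower and 0 higher, and then 1 lower and 7 higher.

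Receptors and signalling proteins of immune cells made up 12 members by name, among them the phosphatase PTPRC (CD45), the kinases BTK and SYK, the lipid kinase subunit PIK3CG and the interleukin receptor chains IL9R and IL15RA. All 12 were called lower in both steps, with median log2 fold changes of -1.01 and -2.69. PTPRC was at 45.3, 45.0 and 48.5 CPM untreated, 66.1, 76.6 and 46.9 CPM at 0.15 µM, 26.9, 30.4 and 35.7 CPM at 0.25 µM and 1.09, 1.19 and 2.42 CPM at 0.5 µM. BTK was at 189, 184 and 165 CPM untreated, 99.5, 129 and 132 CPM at 0.15 µM, 74.0, 58.9 and 117 CPM at 0.25 µM and 3.79, 4.77 and 10.2 CPM at 0.5 µM. In PTPRC, BTK and SYK the third library at 0.5 µM was over 2-fold above the others of its group and still below all libraries at 0.25 µM. The log2 fold change from 0.25 to 0.5 µM was -4.16 for PTPRC (SE 0.27, adjusted p = 3.19e-09, edgeR) and -3.61 for BTK (SE 0.25, adjusted p = 1.11e-08). UBASH3A, a suppressor of T cell receptor signalling, was weakly expressed, with 12.5, 12.2 and 12.4 CPM untreated and 0.0421, 0.397 and 0.299 CPM at 0.5 µM.

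**Figure D4:**
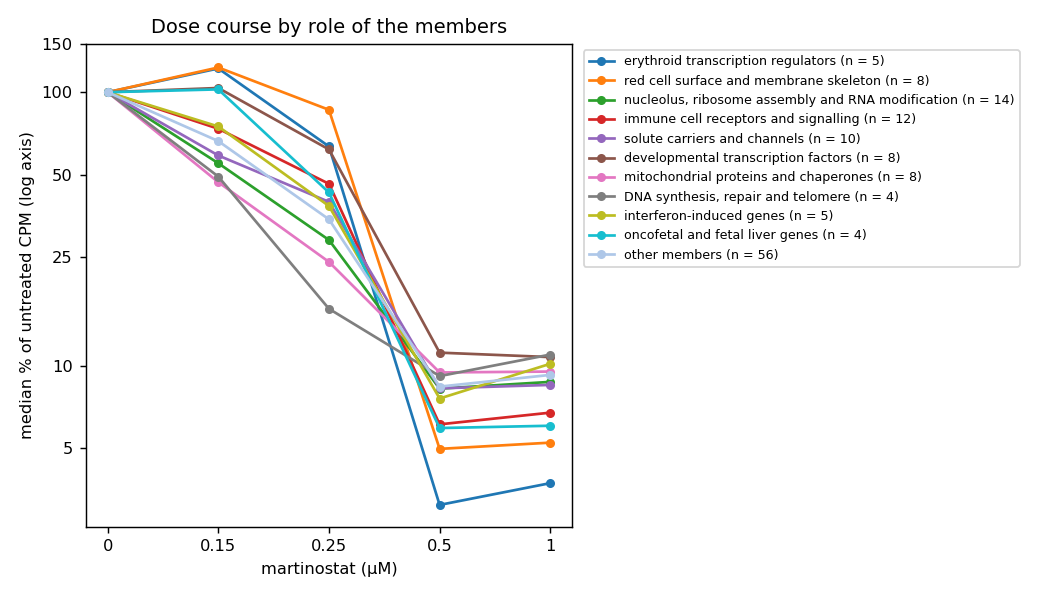
Median level as percent of untreated CPM, on a log axis, against martinostat dose in µM for the members grouped by role, with the number of genes in brackets. On library totals, erythroid regulators, red cell surface genes, developmental transcription factors and oncofetal genes lie above 100% at 0.15 µM. Erythroid regulators and red cell surface genes lie lowest at 0.5 µM, and the DNA synthesis group is lowest at 0.25 µM.

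Solute carriers and channels were 10 members. SLC38A5, a glutamine and neutral amino acid carrier, had the lowest share of untreated at both lower doses, with 279, 257 and 273 CPM untreated, 47.2, 49.5 and 66.5 CPM at 0.15 µM, 25.2, 19.9 and 16.1 CPM at 0.25 µM and 9.14, 7.98 and 5.08 CPM at 0.5 µM. It fell in both tested steps (log2 fold changes -1.57, SE 0.26, adjusted p = 0.00111, and -1.29, SE 0.27, adjusted p = 0.00131, edgeR). ASIC4, of the acid-sensing channel family, went the other way at first, at 225% of untreated at 0.15 µM, 167% at 0.25 µM and 10.5% at 0.5 µM. SLC7A11, the cystine carrier, and KCNH2, a potassium channel, also belong here.

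Developmental transcription factors were 8 members, among them HOXB2, HOXB8 and HOXB9 of one cluster on chromosome 17, WT1, ZEB2 and TFAP2B. Their median was 104% of untreated at 0.15 µM and 61.8% at 0.25 µM, and 5 of the 8 were above untreated at 0.15 µM. ZEB2, which represses epithelial genes, was at 64.0, 62.2 and 61.9 CPM untreated, 106, 119 and 69.9 CPM at 0.15 µM, 94.6, 123 and 138 CPM at 0.25 µM and 5.89, 8.06 and 13.3 CPM at 0.5 µM. ZEB2 fell from 0.25 to 0.5 µM, by a log2 fold change of -3.58 (SE 0.24, adjusted p = 4.97e-09, edgeR). TFAP2B was lower at each of these doses, with 54.1, 53.3 and 47.0 CPM untreated, 29.7, 25.9 and 23.4 CPM at 0.15 µM, 13.3, 12.3 and 21.1 CPM at 0.25 µM and 1.47, 2.15 and 1.99 CPM at 0.5 µM.

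Oncofetal and fetal liver genes were 4 members, the RNA-binding proteins IGF2BP1 and LIN28B and the neighbouring serum protein genes AFP and ALB. ALB had the highest level relative to untreated at 0.15 µM of any member, 365%. Its libraries were at 13.6, 11.7 and 12.6 CPM untreated, 52.8, 45.1 and 40.4 CPM at 0.15 µM, 22.2, 21.3 and 4.46 CPM at 0.25 µM and 0.337, 1.11 and 1.09 CPM at 0.5 µM. The third library at 0.25 µM was again low. The change from 0.25 to 0.5 µM was -4.13 on the log2 scale (SE 0.56, adjusted p = 7.40e-05, edgeR).

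Interferon-induced genes were 5 members, IFITM1, IFITM2, NMI, APOL1 and CMPK2. CMPK2, a mitochondrial nucleotide kinase, was at 80.1, 81.0 and 80.1 CPM untreated, 268, 251 and 167 CPM at 0.15 µM, 117, 142 and 163 CPM at 0.25 µM and 6.61, 8.34 and 11.6 CPM at 0.5 µM. It fell in both tested steps, with log2 fold changes of -0.87 (SE 0.16, adjusted p = 0.00201, edgeR) and -3.85 (SE 0.18, adjusted p = 5.72e-11). IFITM1 and IFITM2 are neighbouring genes of 1 family, and 31.6% of the exon bases of IFITM1 are shared with other genes. Reads of related genes can be split between them, so their single levels are uncertain.

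The remaining 56 members have other roles. FOSL1, an AP-1 subunit induced by ERK signalling, was at 21.4, 22.3 and 24.1 CPM untreated, 19.1, 17.8 and 19.0 CPM at 0.15 µM, 5.29, 5.19 and 5.72 CPM at 0.25 µM and 2.27, 1.11 and 0.996 CPM at 0.5 µM. Its log2 fold changes were -1.95 (SE 0.25, adjusted p = 0.000116, edgeR) and -1.73 (SE 0.28, adjusted p = 0.000102). ACTL8, an actin-like gene of the testis, was at 13.4, 12.3 and 10.7 CPM untreated and 3.75, 3.41 and 3.82 CPM at 0.15 µM. C10orf71 was at 0, 0.516 and 0.465 CPM at 0.5 µM, and its single library at 0 counts allows up to 3 counts. No member came from the lists of heme synthesis and iron handling, megakaryocyte genes, stem and myeloid transcription factors, JAK-STAT and BCR-ABL signalling, mitosis, G1 cyclins, apoptosis regulators or HDACs, but STAT5A of the JAK-STAT list met the limits and was one of the genes left out by name.

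Members divided by their response at 0.15 µM. Above untreated in mean on library totals were 33 members (24.6%, against 47.3% of expressed protein-coding genes). The untreated libraries were part of the choice, so the difference between these shares is no result about the members. In 19 of them all 3 libraries were above all untreated libraries. These 33 had a median of 137% of untreated at 0.15 µM, 86.5% at 0.25 µM and 8.49% at 0.5 µM. In 93 members all libraries at 0.15 µM were below all untreated ones. For these counts of separated libraries no share over expressed genes is given. The 39 members that were already at most 50% of untreated at 0.15 µM had a median of 23.3% at 0.25 µM and 7.61% at 0.5 µM. Levels changed little between 0.5 and 1 µM, so the selection at 1 µM also holds both medians low at 0.5 µM. Their closeness there is therefore no result about the sets. The smallest shares of the fall at 0.15 µM were those of CMPK2, ALB, MS4A3, IL9R, NFE2 and ASIC4, all of them above untreated at that dose. The largest were those of FAM136A, POLR1G, SLC38A5, SLC25A21, UTP20 and the neuropeptide gene GAL, at 43.8% to 51.9% of the log2 fall.

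The RefSeq promoter table (GRCh38.p14, 250 bases before to 50 after the start) had an entry for 99 of the 134 members and for 7170 of the 8559 expressed protein-coding genes. The letters AGATAA were in 16 of the 99 member windows (16.2%), beside 4.35% of the windows of expressed genes and 10.5% of all 27305 windows. The E-box CACGTG was in 26 (26.3%), beside 11.2% and 7.44%. AQP10 and PLBD1 held both. SP letters were in 56.6% of member windows and 73.2% of expressed windows, the ETS letters CCGGAAG in 14.1% and 23.2%, and the TATA letters in 10.1% and 4.91%. The shares were 31.3% and 37.9% for NF-Y, 31.3% and 36.8% for KLF, 7.07% and 5.96% for STAT (TTCNNNGAA), 5.05% and 2.47% for AP-1 and NFE2 (TGAGTCA) and 7.07% and 8.55% for RUNX (TGTGGT). All were searched on both strands. Motif content moves with base composition, which was 60.7% G and C in the median member window and 65.7% in expressed genes. A match is a description of letters and was not tested as a binding site.

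**Figure D5:**
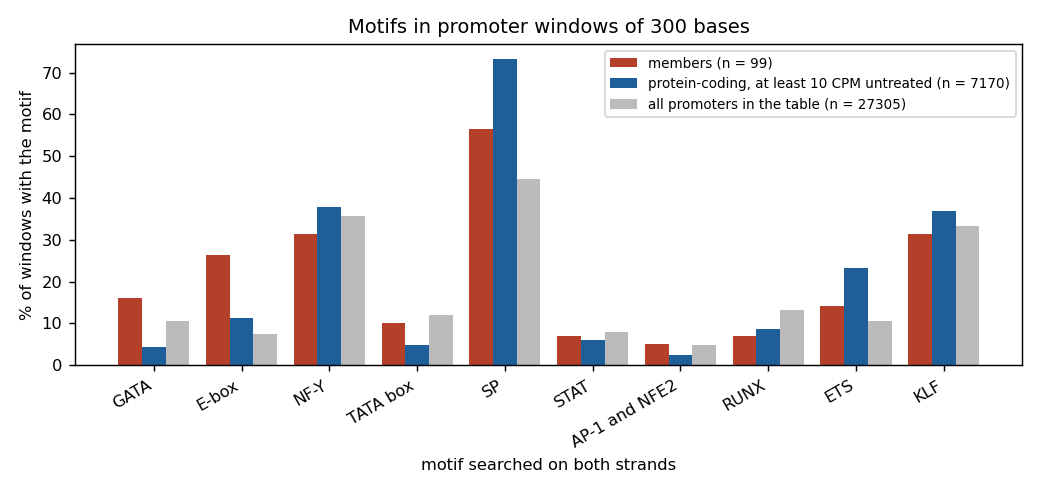
Share of promoter windows, in percent, that hold each of 10 motifs on either strand, for the 99 members with a window, the 7170 expressed protein-coding genes and all 27305 windows. The member bar stands above both others for the E-box, and above the expressed genes but nearer to all windows for GATA.

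The roles were not tested against each other. Of the 11 nucleolar and RNA modification members with a window, 10 held CACGTG and 0 held AGATAA. Motif shares of expressed genes of the same role that are not members were not obtained. The counts by role therefore do not tell members from their functional class. Of the 11 immune signalling members with a window, 4 held AGATAA (BTK, IL9R, PIK3CG and PTPN7) and 1 held CACGTG. Among the 7 solute carriers and channels with a window, 1 held AGATAA and 3 held CACGTG. Among the 7 mitochondrial members 1 window held AGATAA and 1 held CACGTG, and among the 40 members of other roles 7 and 10. GYPB and GYPE held AGATAA among the 5 red cell surface members with a window, whereas none of the 3 erythroid regulators with a window did. The 26 members with CACGTG had a median of 50.8% of untreated at 0.15 µM and 28.1% at 0.25 µM, with 1 above untreated at 0.15 µM. The 16 with AGATAA had 83.2% and 49.3%, with 7 above untreated, and the 59 with neither had 62.4% and 33.0%, with 14 above. At 0.5 µM these medians were 8.23%, 9.73% and 7.77%.

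By position, 15 members (11.2%) lay on chromosome 11, against 5.88% of expressed protein-coding genes, the largest excess of any chromosome. Other chromosomes held fewer members than their share of expressed genes. Chromosome 19 held 2.985% against 6.95% and chromosome 3 held 2.24% against 5.60%. These differences were not tested. Within 200 kb of each other were GYPE and GYPB, ALB and AFP, HOXB2, HOXB8 and HOXB9, MS4A3 and MS4A4A, IFITM2, IFITM1 and PKP3, DPH2 and SLC6A9, and PIGW and MRM1. ALB and AFP were 9655 bases apart (hg38, chr4:73397114-73421482 and chr4:73431138-73456174). In 21 members at least 10% of the exon bases were shared with another gene, in none over 50%. The highest shares were 49.8% in POLR1G, 47.9% in TYMS, 44.2% in BAG2 and 37.2% in SLC25A21, all with a gene on the opposite strand. The libraries were stranded, but whether the counting used strand was not given in the sources used here, so reads in the shared stretches may have been counted for either gene or for neither. IL9R and DHRSX have a second annotated copy on the other sex chromosome, so their levels are uncertain too.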

How the data were processed

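Poly(A) mRNA of 15 libraries was sequenced on a directional kit. The authors trimmed the reads with Trim Galore 0.6.10 and Trimmomatic, aligned them to hg38 with HISAT2 2.2.1, sorted them with SAMtools 1.21 and counted fragments per GENCODE gene with featureCounts 1.5.3. The deposited values used here are these raw counts, with no normalization. The deposited FPKM values were not used. The strand setting was not given in the sources used here.

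Gene type, names and positions came from GENCODE 44 (hg38), which matched the version of 107 of the 134 member identifiers, and the others were matched without the version. The 23711 genes that passed edgeR's filterByExpr were fitted together over all 15 libraries with TMM scaling (factors 0.784 to 1.28) and the quasi-likelihood test of edgeR 4.0.16. P-values were adjusted by the Benjamini-Hochberg method over all tested genes, with a call at an adjusted p under 0.05. The study's methods name DESeq2, which was run as an alternative (version 1.42.0), as were other scalings and filters, a replicate block and fits without single libraries. The code was tested on simulated data. Levels are CPM on library totals. Errors are the standard errors of the fit and cover the spread between biological replicates as labelled.

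The same-number pairing comes from the replicate numbers in the labels. Deviations from the group means of equally numbered libraries correlated at 0.266, 0.268 and 0.579 between 0.25 and 0.5 µM. In the other steps they correlated at -0.05 to 0.03. First and second libraries of unequal number correlated at 0.236 and 0.0944 between 0.25 and 0.5 µM. Only the third libraries, which stood apart on the third principal component, were thus clearly alike, and pairing by number was not established. The main fit used group only, with the replicate block as an alternative.

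Named were the 10 members with the largest loss, the 6 with the largest and the 6 with the smallest share of their fall at 0.15 µM, the genes next to the limits, up to 4 members per gene list, the highest at 0.15 µM and from 0.5 to 1 µM, and the 3 lowest fold changes of each step. Some members that this rule names are not reported here. Other names were chosen after their values were seen, and roles were assigned by gene name. The members and lists were chosen with earlier results of these data known.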

Additional observations from a re-analysis of the deposited data

How the results depend on the processing

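The number of members depended on the scale and the limit. It was 134 as defined, 218 with TMM-scaled and 202 with RLE-scaled library sizes, 518 with a limit of 4-fold and 30 with a limit of 16-fold in place of 8-fold, and 130 to 148 with 1 library left out in turn. With TMM or RLE scaling all 134 were still found. From 0.15 to 0.25 µM 108 members were called lower, 61 when a fall of more than 2-fold was also required, 81 on library totals, 110 with the replicate block and 79 to 99 with 1 library left out. From 0.25 to 0.5 µM 133 were called, 134 with the replicate block and 128 to 131 with 1 library left out, and from 0.15 to 0.5 µM 134 in the fit with the replicate block and in each fit that left out 1 library. No alternative called a member higher. Between 0.15 and 0.25 µM the median change of all tested genes was, on the log2 scale, 0.02 with TMM, 0.11 with RLE and 0.19 on library totals, against -0.96, -0.87 and -0.79 for the members. With 1 library left out in turn, the log2 fold change from 0.15 to 0.25 µM ran from -0.3155 to 0.02731 for NFE2 and from -0.01946 to 0.2482 for ZEB2. Both changed sign without the third library at 0.15 µM, and neither passed the test in any of these fits. Of 1029 further values for single members, 994 kept both direction and side of the threshold. ALB lost its call from 0.15 to 0.25 µM without any 1 of the libraries at 0.15 µM (adjusted p 0.0709 to 0.0870, edgeR), and SRM lost its call from 0.25 to 0.5 µM without the first (0.0514) or second (0.111) library at 0.25 µM. Single libraries also decided calls of HBZ, TERT, UNG and UTP20, and the cause was not tested. Counts at 0.5 and 1 µM are low for weakly expressed members, with 7 as the lowest count at 1 µM, which limits the precision there.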
